A study of Mus musculus with 12 samples.

Results

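The classical protein tyrosine phosphatases other than Shp2 and Shp1 were followed in mouse rod photoreceptors that carried or lacked intact Shp2, the phosphatase encoded by Ptpn11. Members were all genes whose symbol was Ptpn with a number or Ptpr with a letter and at most a further digit. Ptpn11, its close relative Ptpn6 (Shp1) and the adaptor Ptprcap were left out. The rule found 35 of the 56748 genes in the table, 20 of the receptor type and 15 of the non-receptor type. A further receptor member of the family had no entry in the table under its symbol. The question was which of these genes rods hold beside Ptpn11, and whether their level differed in the mutant.

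Protein tyrosine phosphatases remove phosphate from tyrosines and so reverse the work of tyrosine kinases. Shp2 is a cytoplasmic member whose SH2 domains dock on phosphorylated receptors and adaptors, and it promotes signalling from growth factor receptors through Ras to the MAP kinase ERK. The other classical members share its catalytic fold but differ in where they sit: some span the membrane and bind ligands or neighbouring cells, while others are held at the endoplasmic reticulum, the cytoskeleton or vesicles.

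The series held 12 mouse libraries at 2 weeks of age, 3 in each of 4 groups. Rod libraries were made by TRAP, a pull-down of ribosomes that carry a tagged protein, and whole retina libraries were made from RNA taken before the pull-down. All mice were homozygous for RiboTag, a floxed Rpl22 allele that yields an HA-tagged ribosomal protein after Cre acts, and all carried i75-Rod-Cre, a transgene that makes Cre in rods. Control littermates (Het) were Shp2fl/+ and mutants (KO) were Shp2fl/fl. The control was thus heterozygous for the deletion in rods, although sample titles call it wt, and no group had rods with both Ptpn11 copies intact. Tissue was perfused with cycloheximide and flash-frozen, and polyA RNA was amplified with SMART-Seq V4. Because Cre acts in rods, other retinal cells kept their floxed alleles in every group. Replicates were not stated to be separate animals, so p-values here measure the spread between samples only.

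Deposited values behaved as read counts multiplied by a factor for each library. They summed to 14525527 to 14527992 in whole retina and 16263948 to 16265259 in rods. The estimated number of reads behind them was 9980000 to 19220000 in whole retina and 11900000 to 25300000 in rods. A count of 0 allowed a share of up to 3e-05% of a whole retina library and 2.5e-05% of a rod library, for counting error only.

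Ptpn11 (ENSMUSG00000043733), the targeted gene, had in Het rods deposited values of 2511, 2439 and 2431, against 1735, 2139 and 1971 in KO rods. Whole retina gave 2390, 2512 and 2125 for Het mice, against 2205, 2147 and 2466 for KO mice. All 3 KO rod libraries lay below all 3 Het rod libraries, while the whole retina groups overlapped. The log2 fold change in KO rods against Het rods was −0.26 (SE 0.09), with an adjusted p of 0.064 from limma, and in whole retina it was −0.04 (SE 0.14, adjusted p 1.0). The rod value was −0.17 (limma adjusted p 0.26) without KO rod replicate 1 and −0.36 (adjusted p 0.019) without replicate 2. Between rods and retina the log2 fold change was 0.33 (SE 0.11, limma adjusted p 0.029) for Het, short of the fold limit of 0.5 used for calls, and 0.15 (SE 0.13, adjusted p 0.32) for KO, and scaling by library total turned these to −0.09 and −0.39. Over the libraries left out the Het value was 0.21 to 0.33, with limma adjusted p from 0.056 to 0.20. The KO value was then −0.07 to 0.22. Reads from a gene with a deleted stretch still count towards it, and the values per gene do not show which exons were read. The gene thus gave no measure of how complete the deletion was. Ptpn6, which has the same domain order, had deposited values of 0 to 8 in rods and 8 to 19 in whole retina.

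The rod label was compared with markers of the other retinal cell types. In Het mice these were called lower in rods than in whole retina for most lists: all 8 cone markers, all 8 Müller glia markers, 7 of 8 bipolar, all 8 amacrine, all 8 ganglion cell, all 4 horizontal cell, all 8 vascular and all 5 tested of 6 pigment epithelium markers. In KO mice the same lists gave all 8 cone, all 8 Müller glia, 7 of 8 bipolar, all 8 amacrine, all 8 ganglion cell, all 3 tested horizontal cell and all 6 tested vascular markers lower, and 1 of 6 pigment epithelium markers. Pigment epithelium signal also followed the replicate number, and with that number in the model Rgr in KO, at a log2 fold change of −2.65, had an adjusted p of 0.00057 from limma in place of 0.13. Many markers of other cells passed the filter through their retina values alone and could only be lower, since between the rod groups 1 horizontal cell, 3 vascular and 3 pigment epithelium markers passed, so these counts are a description. Müller glia markers held 0.00974% to 0.0184% of all deposited signal in rod libraries and 0.320% to 0.473% of whole retina, with Glul the most abundant. Bipolar markers held 0.0214% to 0.0330% of rod libraries and 0.102% to 0.111% of whole retina, and cone markers held 0.0288% to 0.0466% and 0.0953% to 0.113%. Amacrine markers held 0.00369% to 0.00410% of Het rod libraries and 0.00427% to 0.00580% of KO rod libraries, with no overlap, and up to 0.118% of whole retina libraries. In rod libraries ganglion cell markers held 0.00129% to 0.00237%. Vascular markers held 0.000467% to 0.000756%. None of these lists was at 0 throughout in rods, so low values of a gene in rods may come from other cells, and their part in the results was not tested.

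Some libraries stood apart within their group. The GC trend of a library was taken as the median log2 deviation, from the mean of its fraction, of GC-rich genes minus that of GC-poor genes, each 10% of those tested. Among Het retina libraries it was −0.24, 0.86 and −0.84, and among KO retina libraries 0.01, −0.63 and 0.90. For rods, Het libraries gave −0.81, −0.23 and −0.42, and KO libraries gave 0.42, 0.76 and 0.28. All KO rod libraries thus leaned towards GC-rich genes and all Het rod libraries away from them. Lens crystallins, from a tissue next to the retina, held 0.000778% to 4.92% of whole retina libraries and 3.07e-05% to 0.0789% of rod libraries. Of the 6 lens genes, limma called 0 in Het rods against Het retina and 5 lower in KO rods against KO retina. Lens signal followed the replicate number, and with that number in the model the same log2 fold change of −4.90 for Cryba1 in Het had an adjusted p of 0.00011 in place of 0.41.

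Of the 35 members, 15 had a deposited value of at least 10 in all 6 rod libraries, and the same 15 reached it in all 12 libraries. These were Ptpn1, Ptpn2, Ptpn4, Ptpn9, Ptpn12, Ptpn13, Ptpn18, Ptpn21, Ptpn23, Ptpra, Ptprd, Ptprn, Ptprn2, Ptprs and Ptpru. Another 11 reached 10 in some rod libraries and not in others, namely Ptpn3, Ptpn7, Ptpn14, Ptpn20, Ptprf, Ptprj, Ptprk, Ptprm, Ptpro, Ptprt and Ptprz1. The last 9, Ptpn5, Ptpn22, Ptprb, Ptprc, Ptpre, Ptprh, Ptprq, Ptprr and Ptprv, reached it in no rod library. In whole retina 28 members reached 10 in all 6 libraries. Ptprh, Ptprq and Ptprv stayed under 10 in all 12 libraries, with maxima of 9, 2 and 1.

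Levels were compared between genes as the TMM-scaled value per kilobase of merged exons, with each library total set to 1000000. On this scale Ptpn2 stood first in Het rods at 35.6 ± 1.68 (SD, n = 3), ahead of Ptpn11 at 24.6 ± 0.497 and Ptpn21 at 24.0 ± 0.868. Ptpn11 and Ptpn21 did not differ beyond their spread, and with the longest coding transcript as the length Ptpn21 moved ahead of Ptpn11 and the level of Ptpra was 17.7 per kilobase. Ptpn4 followed at 8.70 ± 0.495 per kilobase, with Ptpra at 8.67 ± 0.280 and Ptpn12 at 7.74 ± 0.709. Ptpn4 overlapped both Ptpra and Ptpn12. Ptpn1 had 4.68 ± 0.407, Ptpru 3.58 ± 0.401 and Ptprs 2.69 ± 0.198 per kilobase. The receptor type was thus led by Ptpra, and the non-receptor type held the highest levels.

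In KO rods the level per kilobase was 28.5 ± 0.706 for Ptpn21, 24.5 ± 1.25 for Ptpn2 and 19.4 ± 1.74 for Ptpn11 (SD, n = 3). Their order thus differed from that in Het rods, with Ptpn21 ahead of Ptpn2. Levels were not worked out with the GC trend subtracted. The log2 fold change between the rod genotypes then went from −0.45 to −0.20 for Ptpn2 and from 0.33 to 0.24 for Ptpn21. Ptpra at 8.03 ± 0.303, Ptpn4 at 6.94 ± 0.391 and Ptpru at 6.85 ± 0.396 per kilobase came next. Ptpn4, Ptpru and Ptpn12, at 6.56 ± 1.09, overlapped. With the longest transcript as length Ptprs, at 11.1 per kilobase, came ahead of Ptpn4 and Ptpru. In whole retina Ptpn11 stood first, at 17.5 ± 1.28 in Het and 17.3 ± 1.87 in KO, followed by Ptpn2 at 15.9 ± 2.48 and 15.5 ± 3.39 per kilobase. The 2 genes overlapped in both genotypes. This order depended on the length used: with the longest transcript Ptprn2 came second in retina, at 21.4 in Het and 21.0 in KO per kilobase, ahead of Ptpn2 at 18.6 and 18.1, and Ptpn21 ranked 5.

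**Figure D1:**
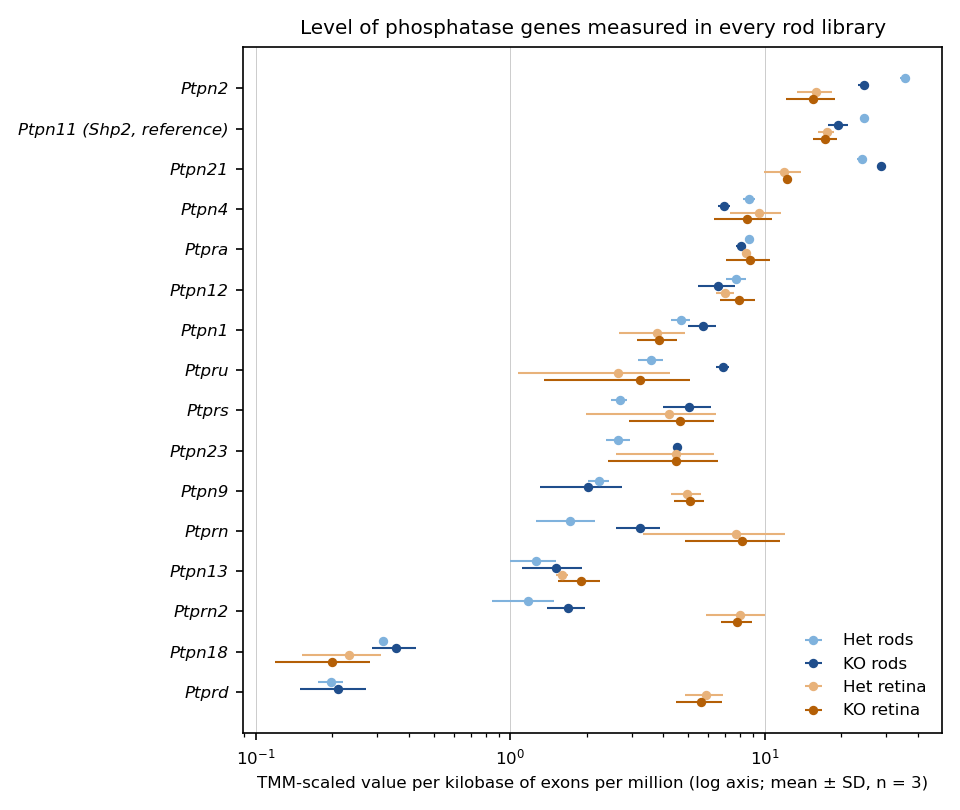
TMM-scaled value per kilobase of merged exons at a library total of 1000000 (log axis) for Ptpn11 and the 15 members with a deposited value of at least 10 in every rod library, as mean ± SD of 3 libraries. Ptpn2, Ptpn11 and Ptpn21 hold the highest levels in all 4 groups on this length; with the longest transcript, Ptprn2 stands ahead of Ptpn2 and Ptpn21 in retina.

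The first comparison asked which members were enriched or depleted in rod ribosomes against whole retina. A gene was called different when its adjusted p from limma was under 0.05 and its log2 fold change was beyond 0.5 in either direction. In bulk samples, fewer cells of a type and less RNA per cell cannot be told apart. In Het mice 30 members passed the filter on low values and 5 did not; 2 were called higher in rods and 20 lower, where 21.6% of all 16110 genes tested were higher and 36.8% lower. Of the 16 members with at least 10 in all 6 libraries, 2 were higher, 7 lower and 7 not called. The other 14 tested were under 10 in at least 1 library, and 13 of them were lower. Several of these passed the filter through whole retina alone and could only be lower, so the counts are a description. Median log2 fold changes were −2.74 over the 30 members and −0.11 over all genes. By type, 13 of 16 tested receptor members were lower and 0 higher, while 7 of 14 non-receptor members were lower and 2 higher.

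In KO mice 29 members were tested, and 4 were called higher in rods and 17 lower, where 25.8% of 16121 genes were higher and 36.5% lower. Of the 19 members with at least 10 in all 6 libraries, 4 were higher, 8 lower and 7 not called. Of the other 10 tested, 9 were lower, and several of these passed the filter through whole retina alone and could only be lower. Median log2 fold changes were −2.24 over the members and −0.02 over all genes. Scaling by library total alone, in place of TMM, shifted the median of all log2 fold changes by −0.40 in Het and −0.53 in KO. The Het split then became 1 higher and 23 lower, where 1168 of the 16110 genes were higher and 7399 lower. For KO the split became 1 higher and 21 lower, where 1144 of the 16121 genes were higher and 7846 lower. Calls of higher in rods therefore hold relative to the TMM scaling, which takes most genes as unchanged, and the share of RNA that differs between the fractions was not measured.

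**Figure D2:**
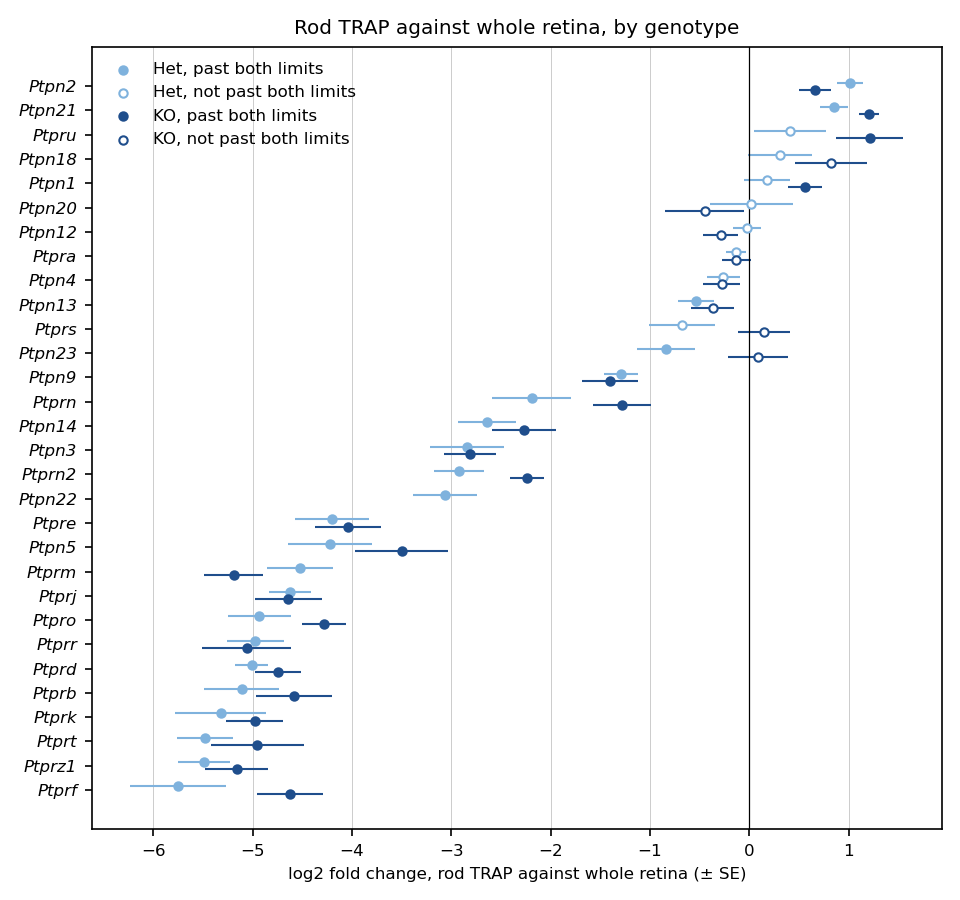
Log2 fold change (± SE) of rod TRAP against whole retina for each member tested, in Het and KO mice with 3 libraries a group; filled points are past both limits. Ptpn2 and Ptpn21 are higher in both genotypes under TMM scaling (Ptpn2 in KO and Ptpn21 in Het are not called under scaling by library total), and the members from Ptpre to Ptprf are lower in both. Several of these lower members passed the filter through whole retina alone and could only be lower.

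Ptpn2 (ENSMUSG00000024539) encodes a phosphatase of the nucleus and endoplasmic reticulum that acts on Janus kinases and STAT factors. In Het rods its deposited values were 1562, 1449 and 1444, against 1048, 980 and 1039 in KO rods. Het retina gave 999, 729 and 926, and KO retina gave 869, 1046 and 642. Het rods stood above every other group, and KO rods and KO retina overlapped as deposited but not after scaling. The log2 fold change of rods against retina was 1.01 (SE 0.13) in Het, with an adjusted p of 0.00019 from limma, and 0.66 (SE 0.16, adjusted p 0.0061) in KO. Scaled by library total it was 0.59 (adjusted p 0.0063 from limma) in Het and 0.13 (adjusted p 0.56) in KO. The KO value also rested on single libraries: it was 0.31 without the third KO retina library and 0.51 (limma adjusted p 0.081) without the first, and either ended the call. With the GC trend subtracted Ptpn2 was called higher in both genotypes, at 0.96 (limma adjusted p 6.6e-06) in Het and 0.83 (adjusted p 9.0e-06) in KO. Its nearest relative Ptpn1, which acts on the insulin receptor from the endoplasmic reticulum, had deposited values of 310 to 487 in rods and 247 to 457 in retina. Ptpn1 gave a log2 fold change of 0.18 (SE 0.23, limma adjusted p 0.52) in Het and 0.56 (SE 0.17, adjusted p 0.018) in KO. The KO call was lost with scaling by library total, at 0.02 (limma adjusted p 0.92), with the GC trend subtracted, at 0.45, and without the first or second KO retina library, at 0.35 and 0.29, or the second KO rod library, at 0.46. The interaction for Ptpn1 was 0.23 (SE 0.30, limma adjusted p 0.84), so the genotypes were not shown to differ.

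Among members with a FERM domain, which binds the membrane cytoskeleton, Ptpn21 (ENSMUSG00000021009) encodes a phosphatase known to bind and activate the kinase Src. Het rods gave deposited values of 2525, 2627 and 2428, and KO rods gave 3018, 3080 and 2912. Retina values were lower, at 1848, 1863 and 1334 for Het mice and 1768, 1665 and 1648 for KO mice. Every rod library lay above every retina library, and every KO rod library above every Het rod library. Against retina the log2 fold change was 0.85 (SE 0.14, limma adjusted p 0.00086) in Het and 1.20 (SE 0.10, adjusted p 1.2e-05) in KO. Scaled by library total it was 0.44 (adjusted p 0.033 from limma) and 0.66 (adjusted p 0.00058).

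Ptpn4, a FERM and PDZ domain phosphatase, had deposited values of 974 to 1379 in rods and 1169 to 2241 in retina and was not called, with log2 fold changes of −0.26 in Het and −0.28 in KO. Under scaling by library total limma called Ptpn4 lower in rods in both genotypes. It was also called lower in Het without Het retina replicate 2 and in KO without KO retina replicate 3. The related Ptpn3 was low in rods, at 6 to 18 against 91 to 131 in retina, and log2 fold changes were −2.84 (SE 0.37) and −2.81 (SE 0.26). Ptpn14, which restrains the growth regulator YAP, had 9 to 18 in rods and 73 to 135 in retina. Ptpn13, a large scaffold with several PDZ domains, had 159 to 310 in rods and 321 to 473 in retina. It was called lower in Het rods with a log2 fold change of −0.54 (SE 0.18, limma adjusted p 0.031) and not called in KO at −0.37 (SE 0.22), and its interaction was 0.02 (SE 0.30). The Het call for Ptpn13 lay at the fold limit and was lost with RLE scaling, without the filter, and without Het retina replicate 1 or Het rod replicate 2 or 3. The FERM members thus ranged from enriched to depleted.

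The PEST members share a tail rich in proline and serine. Ptpn12, which acts on the focal adhesion adaptor p130Cas, had deposited values of 277 to 389 in rods and 389 to 577 in retina, and its log2 fold changes of −0.02 in Het and −0.29 in KO were not called. In KO, Ptpn12 was called lower in rods under scaling by library total and without KO retina replicate 3. Scaling by library total also called Ptpn13 lower in KO, as did leaving out KO retina replicate 2. Ptpn18 had 24 to 35 in rods and 13 to 33 in retina, with log2 fold changes of 0.31 (SE 0.32, limma adjusted p 0.43) in Het and 0.82 (SE 0.36, adjusted p 0.071) in KO. With the GC trend subtracted it was called higher in both, at 0.88 and 0.84. Ptpn22, known from lymphocytes, had 0 to 1 in rods and 9 to 22 in retina. At such counts the fold change for Ptpn22, −3.06 in Het, is set in part by the added constant.

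Ptpn9, whose Sec14 domain binds vesicle lipids, had in Het rods deposited values of 125, 152 and 140, against 75, 144 and 161 in KO rods. Het retina gave 381, 381 and 465, and KO retina gave 365, 466 and 418. No rod library reached a retina library, and the log2 fold change was −1.29 (SE 0.17, limma adjusted p 0.00020) in Het and −1.40 (SE 0.28, adjusted p 0.0019) in KO. Ptpn20 had 4 to 13 in rods and 6 to 23 in retina and was not called.

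Ptpn5, Ptpn7 and Ptprr form the group that binds MAP kinases through a short docking motif and dephosphorylates ERK, the kinase downstream of Shp2. Ptprr had in Het rods deposited values of 7, 3 and 4, against 8, 6 and 1 in KO rods. For retina these were 221, 256 and 223 with the Het genotype and 268, 277 and 222 with the KO genotype. Rods were far below retina in every library, and the log2 fold change was −4.97 (SE 0.29) in Het and −5.06 (SE 0.45) in KO. Ptprr reached 10 in no rod library, so it passed the filter through retina alone and could only be lower. The Het value also moved with the added constant, to −5.33 at 0.5 and −4.10 at 8. A gene on the other strand overlaps 11% of the Ptprr exons, and the strand of counting was not stated, so part of its signal may belong to that gene. Exons of other genes also overlap 7.58% of Ptpn18, 5.18% of Ptprm, 4.45% of Ptprn, 3.65% of Ptpn9 and 3.01% of Ptpra. Ptpn5, a striatum-enriched member, had 0 to 4 in rods and 27 to 77 in retina. Ptpn7, known from blood cells, had 10, 5 and 19 in Het rods, 0, 2 and 5 in KO rods and 0 to 5 in retina, so that after scaling Het rods were above Het retina while the KO groups overlapped, and it failed the filter.

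Ptpra, which activates Src by removing the phosphate from its inhibitory tyrosine, was the receptor member with the highest level in rods. Deposited values of Ptpra were 1290, 1218 and 1252 for Het rods, 1124, 1155 and 1211 in KO rods, and 1384 to 1950 in retina. After scaling, rods and retina overlapped, and the log2 fold change was −0.13 (SE 0.10, limma adjusted p 0.31) in Het and −0.13 (SE 0.15, adjusted p 0.46) in KO. Under scaling by library total Ptpra was called lower in rods in both genotypes. Its relative Ptpre had 2 to 8 in rods and 126 to 157 in retina, with a log2 fold change of −4.20 (SE 0.37) in Het. Ptpre passed the filter through retina alone and could only be lower.

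The group that binds its own kind on neighbouring cells holds Ptprk, Ptprm, Ptprt and Ptpru, all with a MAM domain. Ptpru (ENSMUSG00000028909) had in Het rods deposited values of 299, 377 and 344, against 622, 706 and 626 in KO rods. Retina gave 251, 571 and 193 for Het mice and 344, 215 and 640 for KO mice. The spread in retina was wide, with the second Het and the third KO library far above the others; these were also the retina libraries with the highest GC trend. Against retina the log2 fold change of Ptpru was 0.41 (SE 0.36, limma adjusted p 0.35) in Het and 1.21 (SE 0.34, adjusted p 0.012) in KO, and the interaction was 0.66 (SE 0.56, adjusted p 0.80). The KO call was lost without the first KO retina library, at a log2 fold change of about 1 (limma adjusted p 0.087), without the second, at 0.66 (adjusted p 0.060), and with scaling by library total, at 0.68 (adjusted p 0.10). With the GC trend subtracted Ptpru was called higher in both genotypes, at 1.07 in Het and 1.29 in KO. In Het it was also called higher without the second Het retina library. The other 3 were depleted in rods, with deposited values of 7 to 32 against 626 to 857 for Ptprk, 5 to 27 against 428 to 678 for Ptprt and 2 to 12 against 211 to 263 for Ptprm. Log2 fold changes in Het were −5.32 (SE 0.46) for Ptprk, −5.48 (SE 0.28) for Ptprt and −4.52 (SE 0.33) for Ptprm. Ptprm failed the filter between the rod groups, so it was tested against retina through its retina values and could only be lower.

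The LAR group, Ptprd, Ptprf and Ptprs, links synapses and axons to ligands such as the Slitrk proteins and heparan sulphate. Ptprs (ENSMUSG00000013236) had in Het rods deposited values of 491, 565 and 558, against 898, 1283 and 866 in KO rods. Retina gave 962, 1795 and 626 for Het mice and 1179, 820 and 1633 for KO mice. Its retina libraries were spread as those of Ptpru were, and neither genotype was called, with log2 fold changes of −0.68 (SE 0.33, limma adjusted p 0.10) in Het and 0.15 (SE 0.26, adjusted p 0.62) in KO. With the replicate number added to the model the Het value was called lower (limma adjusted p 0.042), as it was with scaling by library total and without Het retina replicate 3; with the GC trend subtracted it was 0.10 and not called. Ptprd had 49 to 83 in rods and 1667 to 2749 in retina, and its log2 fold change in Het was −5.01 (SE 0.17, limma adjusted p 2.5e-07). Ptprf had 4 to 30 in rods and 524 to 1227 in retina, with −5.75 (SE 0.48) in Het and −4.62 (SE 0.33) in KO.

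Ptprn and Ptprn2 encode proteins of dense core vesicles whose phosphatase domains lack the usual activity on tyrosine. Ptprn (ENSMUSG00000026204) had deposited values of 68, 116 and 107 in Het rods, 223, 165 and 163 in KO rods, and 297 to 951 in retina. Ptprn2 (ENSMUSG00000056553) had 119, 177 and 107 in Het rods, 204, 157 and 216 in KO rods, and 879 to 1535 in retina. All rod libraries lay below all retina libraries for both genes. Log2 fold changes of rods against retina were −2.19 (SE 0.40) in Het and −1.28 (SE 0.29) in KO for Ptprn, and −2.92 (SE 0.25) and −2.24 (SE 0.17) for Ptprn2. Ptpn23 (ENSMUSG00000036057), which sorts receptors at endosomes and whose catalytic activity is in doubt, had in Het rods deposited values of 186, 225 and 186, against 331, 338 and 346 in KO rods. Retina gave 407, 657 and 285 for Het mice and 439, 251 and 632 for KO mice. It was called lower in Het rods, with a log2 fold change of −0.84 (SE 0.29, limma adjusted p 0.030), though the scaled groups overlapped, and in KO the value was 0.09 (SE 0.30, adjusted p 0.80). Its interaction of 0.78 (SE 0.45, adjusted p 0.80 from limma) did not pass. The Het call was lost with the GC trend subtracted, at −0.29, and without Het rod replicate 1 or 3, at −0.78 (limma adjusted p 0.090) and −0.80 (adjusted p 0.088).

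The remaining receptor members are known from cells other than rods. Ptprz1, a glial receptor for pleiotrophin, had deposited values of 8 to 21 in rods and 517 to 822 in retina, with a log2 fold change of −5.49 (SE 0.26) in Het. Ptprz1 failed the filter between the rod groups, so it was tested against retina through its retina values and could only be lower. Ptprb, known from endothelium, had 0 to 4 in rods and 89 to 150 in retina and a log2 fold change of −5.11 (SE 0.38) in Het. That value was set in part by the added constant, as it was −6.29 with a constant of 0.5 and −3.59 with 8. Ptprb also passed the filter through retina alone and could only be lower. Ptpro, known from podocytes and neurons, had 6 to 20 in rods and 374 to 517 in retina, with −4.93 (SE 0.32). Ptprj, which acts on growth factor receptors, had 6 to 18 in rods and 400 to 507 in retina, with −4.62 (SE 0.21). Ptprc (CD45), the leukocyte member, had 0 to 3 in rods and 8 to 16 in retina and was not tested in either genotype. Ptprh, Ptprq and Ptprv were not tested either. All of these were far lower in rods than in retina or too low to compare.

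The comparison of KO rods with Het rods asked whether any member differed in level where Ptpn11 was deleted. Of the 35 members, 23 were tested and 12 were not. limma called 5 higher in KO rods and 0 lower, and 10 members had an unadjusted p under 0.05. Over all 13055 genes tested, 11.2% were higher and 1.91% lower, and 5005 had an unadjusted p under 0.05. The 5 were among the 15 members with at least 10 in all 6 libraries, and the other 10 of those were not called. Median log2 fold changes were 0.33 over the members and −0.01 over all genes. Under scaling by library total, which shifted the median of all log2 fold changes by −0.08, the split became 4 higher and 1 lower, while over all genes 1202 were higher and 584 lower, against 1460 and 250 under TMM. By type, 4 of 11 tested receptor members and 1 of 12 non-receptor members were higher.

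The 5 members were Ptpru, Ptprn, Ptprs, Ptprn2 and Ptpn23, which lie on chromosomes 4, 1, 17, 12 and 9. For Ptpru all KO rod libraries lay above all Het rod libraries, and the log2 fold change was 1.02 (SE 0.12) with an adjusted p of 0.0023 from limma. For Ptprs the groups were also apart, with 0.98 (SE 0.16, limma adjusted p 0.0051), and for Ptprn with 1.01 (SE 0.21, limma adjusted p 0.0078). Ptpn23 showed the smallest spread in KO rods and a log2 fold change of 0.85 (SE 0.12, limma adjusted p 0.0027). Ptprn2 had overlapping groups and a log2 fold change of 0.61 (SE 0.19, limma adjusted p 0.035). Its call was lost when either of 2 Het rod or 2 KO rod libraries was left out, at log2 fold changes of 0.46 to 0.57, and with scaling by library total, at 0.53 (limma adjusted p 0.056). Ptprf had a larger log2 fold change, 1.12 (SE 0.43), at low deposited values (4, 12 and 18 for Het, 19, 20 and 30 for KO), and was not called (limma adjusted p 0.075). It was called with the replicate number in the model (limma adjusted p 0.032) and without Het rod replicate 3. With the GC trend subtracted Ptprf was at 0.49 (limma adjusted p 0.52). In the interaction of genotype with fraction, none of the 5 passed, with values from 0.53 for Ptprn2 to 0.78 for Ptpn23 and adjusted p of 0.80 from limma for each.

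**Figure D3:**
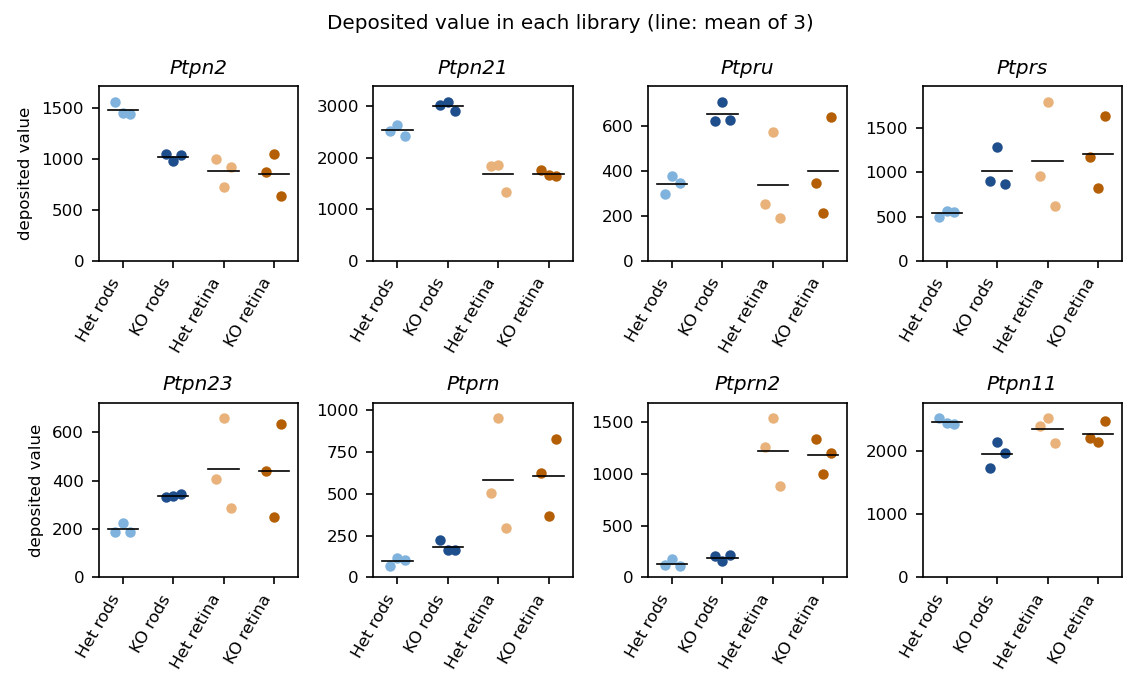
Deposited value of 7 members and Ptpn11 in each of the 12 libraries, with the mean of 3 as a line and each panel starting at 0. Ptpru, Ptprs, Ptpn23 and Ptprn are higher in all KO rod than in all Het rod libraries, and in retina the same genes spread widely within each genotype.

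These 5 members shared a high GC content, 55.6% to 60.3% of the longest transcript, with a median of 59.2% beside 50.6% over the members tested. Ptpn1 (55.8%), Ptprf (58.1%) and Ptpn18 (58.4%) lay in the same range and were not called, with log2 fold changes of 0.37, 1.12 and 0.23. Across the 23 tested members, the Spearman correlation of GC content with the log2 fold change was 0.78, and across all genes it was 0.70; genes are not independent replicates and share the libraries. Among all genes tested, the GC-poorest 10% had a median log2 fold change of −0.28 and the GC-richest 10% of 0.69. With a smooth GC trend subtracted from each library, limma called 0 members, and log2 fold changes were 0.31 (SE 0.09, adjusted p 0.042) for Ptpru, 0.28 (adjusted p 0.40) for Ptprn, 0.19 (adjusted p 0.21) for Ptprs, 0.20 (adjusted p 0.31) for Ptpn23 and 0.20 (adjusted p 0.57) for Ptprn2. Over all genes 156 were then higher and 191 lower. Because the GC trends of the rod genotypes were apart, genotype and GC trend cannot be told apart. In a single fit of all 12 libraries limma also called 0 members, but there the log2 fold changes stayed near their size, at 0.94 for Ptpru, 0.93 for Ptprn, 0.89 for Ptprs, 0.76 for Ptpn23 and 0.53 for Ptprn2, with adjusted p from 0.20 to 0.22. Amacrine markers summed higher in every KO rod library than in any Het rod library, while the other marker lists reported here overlapped. Further marker lists were run and are not given, so no direction over all other cells is stated. Of those tested, 1 of 6 amacrine and 1 of 7 Müller glia markers were called higher in KO rods, beside 11.2% of all genes, and neither stayed called with the GC trend subtracted. The log2 fold change then went from 0.72 to 0.18 for the amacrine marker Slc6a9 and from 1.04 to 0.31 for the Müller glia marker Apoe. Of the 5 members, Ptprn, Ptprn2 and Ptpn23 were called lower in Het rods against retina, and the part of other cells in these differences was not tested.

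**Figure D4:**
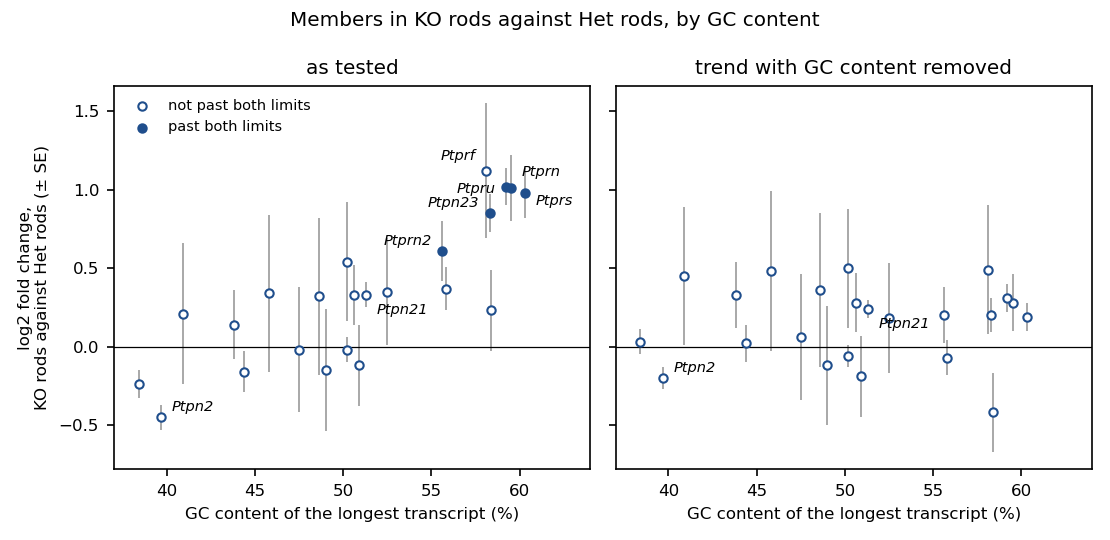
Log2 fold change (± SE) of KO rods against Het rods for the 23 members tested, by GC content (%) of the longest transcript, before and after the GC trend of each library was subtracted. The 5 members past both limits have GC contents from 55.6% to 60.3%, and none is past them in the right panel.

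Of the members with the highest levels per kilobase in Het rods, Ptpru and Ptprs are given above. Ptpn2 was below Het in all 3 KO rod libraries, with a log2 fold change of −0.45 (SE 0.08) and an adjusted p of 0.0042 from limma, short of the fold limit. Ptpn2 was the member called lower when libraries were scaled by their totals, and its GC content was 39.7%, near the low end. With the GC trend subtracted it was −0.20 (limma adjusted p 0.084). It was also the member with the smallest unadjusted p for the interaction, −0.49 (SE 0.22, limma adjusted p 0.80). Ptpn21 was above Het in all 3 KO rod libraries, with a log2 fold change of 0.33 (SE 0.08, limma adjusted p 0.012), and 0.24 (limma adjusted p 0.039) with the GC trend subtracted, again short of the fold limit. Ptpn1 at 0.37 (SE 0.14, limma adjusted p 0.065), Ptpn4 at −0.24 (SE 0.09, limma adjusted p 0.065), Ptpn12 at −0.16 (SE 0.13, limma adjusted p 0.39) and Ptpra at −0.02 (SE 0.08, limma adjusted p 0.84) were not called. Beside them Ptpn11 stood at −0.26, and −0.39 (limma adjusted p 0.013) with the GC trend subtracted.

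In whole retina, KO against Het, 31 members were tested and limma called 0, with 0 at an unadjusted p under 0.05; of all 16863 genes 0.00% were called and 140 had an unadjusted p under 0.05. Log2 fold changes of the members ranged from −0.69 for Ptpn22 to 0.73 for Ptpn20, each with an adjusted p of 1.0. The interaction, in which the KO effect in retina was subtracted from that in rods, called 0 of 31 members and 0.00% of 17192 genes with limma. At an unadjusted p under 0.05 it held 1 member, Ptpn2, and 601 genes. The members called in rods were thus not shown to differ from their change in whole retina.

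Gene lists around the family were read in the same fits, and their counts stand beside the shares over all genes: 21.6% higher and 36.8% lower in Het rods against retina, and 11.2% higher and 1.91% lower in KO against Het rods. Of 30 cytoplasmic tyrosine kinases, 17 were tested in Het rods against Het retina, with 5 higher, 7 lower and a median log2 fold change of −0.04. Among the lower kinases, log2 fold changes were −4.62 for Src, −4.31 for Ptk2b and −3.33 for Lyn. Frk had deposited values of 0 in all Het rod libraries and 18, 27 and 41 in Het retina, so its value of −3.76 was set by the added constant. As 14 kinases passed between the rod groups, some of the 17 passed here through retina alone and could only be lower. The 5 that were higher were Yes1 at 1.01, Jak1 at 0.94, Ptk2 at 0.67, Jak2 at 0.67 and Tec at 0.61. Yes1 belongs to the Src family. In KO rods against Het rods 2 of 14 tested kinases were higher and 0 lower, Tnk2 at 0.85 (SE 0.16, limma adjusted p 0.0050) and Csk at 0.75 (SE 0.16, limma adjusted p 0.0093).

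Of 10 dual-specificity phosphatases that act on MAP kinases, 8 were tested between Het rods and Het retina, with 2 higher, 4 lower and a median log2 fold change of −1.48. The lower ones were Dusp4 at −4.71, Dusp6 at −3.69, Dusp16 at −3.39 and Dusp10 at −2.48, and the higher ones Dusp8 at 0.66 and Dusp7 at 0.54. In KO rods 1 of 7 was higher, Dusp4, at 1.25 (SE 0.41, limma adjusted p 0.043). The list of other cysteine-based phosphatases held 10 symbols in 11 entries, of which 9 were tested, 6 higher, 3 lower, with a median of 0.64; Cdc25c at −3.84, Cdc25b at −3.54, Ssu72 at 1.20 and Ptp4a3 at 1.05 changed most. Ptp4a3 was the 1 of 7 higher in KO rods, at 0.58 (SE 0.14, limma adjusted p 0.023).

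Of 26 ligands and partners of receptor phosphatases, 25 were tested in Het rods against Het retina, with 0 higher, 20 lower and a median log2 fold change of −4.18, led by Cntn4 at −5.33, Slitrk2 at −5.28, Slitrk5 at −5.20 and Slitrk3 at −5.08. Only 11 of the 26 passed the filter between the rod groups, so many were tested against retina through their retina values and could only be lower. In KO rods 1 of 11 was higher, Ppfia3 at 0.85 (SE 0.19, limma adjusted p 0.0098), and 1 lower, Cntn1 at −0.84 (SE 0.24, limma adjusted p 0.024). With the GC trend subtracted limma called none of the genes named here for KO rods, with log2 fold changes of 0.05 for Tnk2, −0.02 for Csk, 0.80 for Dusp4, 0.29 for Ptp4a3, 0.05 for Ppfia3 and −0.64 for Cntn1. In whole retina limma called 0 genes of any of these lists between genotypes.

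Phosphatase activity, protein level and the phosphorylation of any substrate were not measured, so these values bear on which genes rods hold and not on whether any of them replaces Shp2. Each group held 3 libraries, and exact tests on 3 against 3 cannot give a p under 0.1.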

How the data were processed

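Rod TRAP and whole retina RNA of Het and KO mice was measured in 12 libraries, 3 in each of 4 groups. The deposited table gives signal per gene; the authors' processing notes name CASAVA 1.8.2, HISAT2, DESeq2, edgeR and the build GRCm39. In 11 libraries the values could be told to be read counts times a factor (0.643 to 1.456); in 1 Het retina library the factor could not be told from 1. Depth was estimated from this factor. For each comparison, genes were kept that reached 10 (rescaled to the median total) in 3 or more libraries and summed to 15 or more, then scaled by TMM factors and fitted with limma 3.58.1 (trend and robust) in R 4.3.3 as log2 of the scaled value plus 2. P-values were two-sided and adjusted by Benjamini-Hochberg over all genes tested. Calls needed an adjusted p under 0.05 and a log2 fold change beyond 0.5. The smallest exact p for 3 against 3 is 0.1. Tables and figures used Python 3.11.15, NumPy 2.4.6 and matplotlib 3.10.9. Exon lengths, GC content and exon overlaps came from GENCODE vM21 on GRCm38, not the build of the files, and GC content was known for 98.87% of the genes tested between rod genotypes and 98.40% between retina genotypes. The scripts were tested on simulated data.

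Alternatives tried were RLE factors or library totals in place of TMM, pseudocounts of 0.5 and 8, no filter or a stricter one of 30, subtraction of a smooth GC trend, a replicate block from the numbers in the sample titles, both together, leaving out each library, a fit of all 12 libraries, removal of genes depleted in rods before the genotype fit, and lengths from the longest transcript. Whether equal replicate numbers paired libraries was checked by the correlation of their residuals. The members and lists were chosen with earlier results of these data known. Genes named in full were Ptpn11, Ptpn6, Ptprr, the 8 members highest in Het rods, and those with the largest changes in each comparison; in other lists, up to 4 with the largest change among those called. Other genes, such as the kinases and Dusp genes higher in rods, were named after their values were seen. The lists reported comprised markers of cones, Müller glia, bipolar, amacrine, ganglion and horizontal cells, vessels, pigment epithelium and lens, cytoplasmic tyrosine kinases, dual-specificity phosphatases, other cysteine-based phosphatases, and ligands and partners of receptor phosphatases.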

Additional observations from a re-analysis of the deposited data

How the results depend on the processing

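Of the counts of members compared over alternatives, 155 stayed within a factor of 1.5 of the main count and 13 moved further. Of the values for single genes that could be fitted, 588 kept their direction and call, 37 lost the call and 8 changed sign. Fits in which a gene failed the filter gave no value and are not in this tally. Ptprr and Ptprb failed it whenever a retina library was left out, in Het and in KO, so their calls were also lost there. Ptpn6 in KO did the same. In Het rods against Het retina, members called higher numbered 1 with library total only, 4 with the GC trend removed (Ptpru and Ptpn18 were added, and Ptpn23 was no longer called lower), 4 with the GC trend and replicate block together, and 2 to 3 over the libraries left out; members called lower numbered 14 to 19 over the libraries left out, where fewer libraries remained for the filter. In KO rods against KO retina, members called higher numbered 1 with library total only and 1 to 4 over the libraries left out (1 without KO retina replicate 1, 2 without replicate 2), and lower 12 to 17. In KO against Het rods, members called higher numbered 0 with the GC trend removed, 0 with GC trend and block, 0 in one fit of all 12 libraries, where limma called 0 of all genes while the log2 fold changes stayed at 0.53 to 0.94, and 2 when genes lower in Het rods than Het retina were removed first, since Ptpn23, Ptprn and Ptprn2 were among those removed; over the libraries left out the number was 4 to 5. Members called lower there numbered 1 with library total only (Ptpn2) and 1 without the filter (Ptpn7). With the longest coding transcript as length, 2 members stood above Ptpn11 in Het rods. The log2 fold change of Ptpn11 between rods and retina reversed with library total only, from 0.33 to −0.09 in Het and from 0.15 to −0.39 in KO, and ranged from −0.07 to 0.22 in KO over the libraries left out. Between the retina genotypes that range was −0.12 to 0.04 for Ptpn11 and −0.07 to 0.46 for Ptpn6. With the replicate block, limma called 2 higher and 21 lower in Het (Ptprs was added), 4 and 17 in KO, 6 higher in KO against Het rods (Ptprf was added), and 0 members in retina and for the interaction. Residuals of libraries with the same number correlated at 0.47, 0.41 and 0.25 between Het rods and retina (mean 0.38, against −0.19 for different numbers), at 0.33, −0.01 and 0.18 between KO rods and retina, at 0.18, 0.03 and 0.03 between the rod genotypes, and at 0.40, −0.59 and −0.14 between the retina genotypes. The cause of these shifts was not tested.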
